A study of Mus musculus with 2 samples.

Results

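The Zfhx and Teashirt genes encode zinc finger homeobox proteins, and 6 of them were examined for DNA methylation differences between CD137+ and PDGFRα+ adipose progenitors of the mouse. The genes are Zfhx2, Zfhx3 and Zfhx4 (the Zfhx family) and Tshz1, Tshz2 and Tshz3 (the Teashirt family). A differentially methylated region of the authors' deposited list was counted for a gene when it overlapped the gene body, or the 50 kb on either side of it, by at least 1 bp. In all, 115 of the 34139 listed regions met this rule, and no region counted for more than 1 of the 6 genes. The list compares 1 whole-genome bisulfite library of CD137+ progenitors with 1 library of PDGFRα+ (CD140a+) progenitors. Both came from adipose tissue of C57BL/6 mice and were treated with DEX (dexamethasone, a synthetic glucocorticoid), so no untreated library enters the comparison. The cells were taken from subcutaneous or visceral fat by magnetic sorting, grown and given an adipogenic cocktail, per the labels' protocols, and the labels name neither the depot nor the number of animals behind each library. Cell identity was not checked against marker genes, because the list gives no level for either library.

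Each region carries 1 signed score made by the authors. The score is used here only to describe and rank regions within the list. It is neither a methylation level nor a percent difference, and the depth behind it is unknown. The order of subtraction is not stated. The title of the list names CD140 before CD137. Were the score the former minus the latter, a positive score would mean higher methylation in the PDGFRα+ library. With 1 library per group there was no replicate error, so no test was made. The genes were also chosen with results of this list known. The counts and places below therefore describe these 2 libraries.

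Zfhx proteins are very large transcription factors that combine many zinc fingers with several homeodomains, and they act mainly in the differentiation of nerve and muscle cells. Teashirt proteins are smaller relatives of the Drosophila trunk patterning factor teashirt. They carry widely spaced zinc fingers, act largely as repressors, and shape the trunk skeleton, smooth muscle and brain during development. Methylation of cytosine at CG dinucleotides within and around such developmental genes often differs between cell lineages and between body positions.

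The 2 families lay on opposite sides of the list's overall balance. At the Zfhx genes 41 of 58 regions were positive, beside 32.6% of the whole list, whereas at the Teashirt genes 51 of 57 were negative. The negative share was 29.3% at the Zfhx genes (95% Wilson interval 19.2 to 42.0) and 89.5% at the Teashirt genes (78.9 to 95.1), beside 67.4% of all listed regions. These intervals cover the counting of regions only, and neighbouring regions are not independent. Without Zfhx4 the Zfhx share was 44.7% of 38 regions, and without Tshz2 the Teashirt share was 84.2% of 19. Over the 6 genes together 68 regions were negative and 47 positive, a negative share of 59.1% (49.99 to 67.7) that averages these opposite parts. The difference between the families was not tested.

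All 6 genes had at least 1 region, a property shared by 68.5% of 21887 protein-coding genes. All 6 also had at least 1 region with an absolute score of 100 or more, against 24.8% of protein-coding genes. Since the genes were chosen on this same list, nothing is read from either count. Such stronger regions made up 29 of the 115, or 25.2%, beside 15.5% of the whole list. At the Teashirt genes all 13 of them were negative, while at the Zfhx genes 9 were positive and 7 negative. The median region was 136 bp wide with an absolute score of 66.5, against 112 bp and 49.4 over the list.

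**Figure D1:**
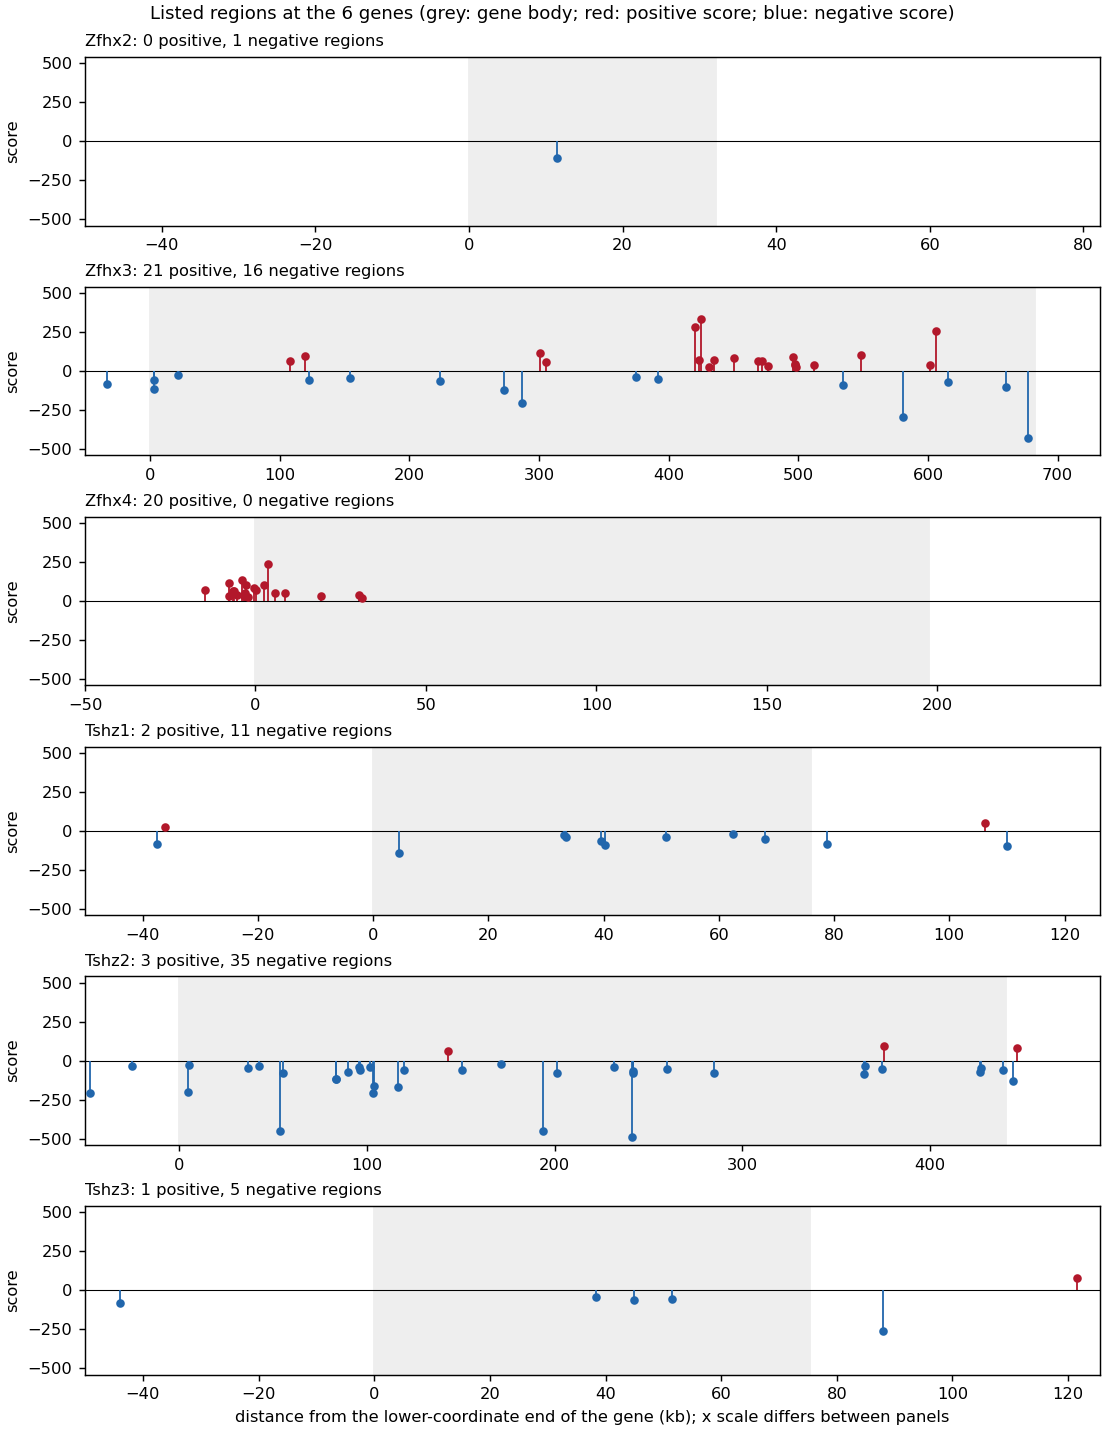
Position and score of each of the 115 regions at the 6 genes. The horizontal axis is the distance in kb from the end of the gene with the lower coordinate, on a scale that differs between panels; the vertical axis is the authors' score; grey marks the gene body, red points are positive and blue points negative. Tshz2 shows 35 negative and 3 positive regions along its whole length, Zfhx4 shows 20 positive regions gathered around its lower end, and Zfhx3 carries both signs.

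Region number grows with gene length, so each gene was set beside the 200 other protein-coding genes nearest to it in length. Tshz2 (440.2 kb) had 38 regions against a median of 8 (quartiles 4 and 12), and none of its 200 comparison genes had as many. The highest of them, Ebf1, had 26. Zfhx3 (682 kb) had 37 regions against a median of 8 (quartiles 4 and 14), and again 0 of 200 had as many, the highest being Grip1 with 35. Tshz1 (76.1 kb) had 13 against a median of 2, with 12 at Boc as the highest comparison gene. Counting only regions that reached 100 in absolute score, Tshz1 had 1 and stood at percentile 79.25. Zfhx4 (198 kb) had 20 against a median of 5, and 1 of 200 genes had at least as many, Ebf2 with 23. With the gene body alone Zfhx4 had 8 regions, and its place among genes of like length moved from percentile 99.5 to 84.75.

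Tshz3 and Zfhx2 lay lower in this order. Tshz3 (75.4 kb) had 6 regions against a median of 2, and 29 of 200 genes of like length had at least as many. Zfhx2 (32.1 kb) had 1 region, which equalled the median of its comparison genes, and 142 of 200 had at least as many. Within a family, therefore, region number was uneven, from 1 to 37 in Zfhx and from 6 to 38 in Teashirt. Per Mb of gene and flanks the order changed. Tshz1 (73.8 regions per Mb), Tshz2 (70.3) and Zfhx4 (67.2) were close together, followed by Zfhx3 (47.3), Tshz3 (34.2) and Zfhx2 (7.57). Among all protein-coding genes only 6 had more regions within 50 kb than Tshz2 and 9 had more than Zfhx3.

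**Figure D2:**
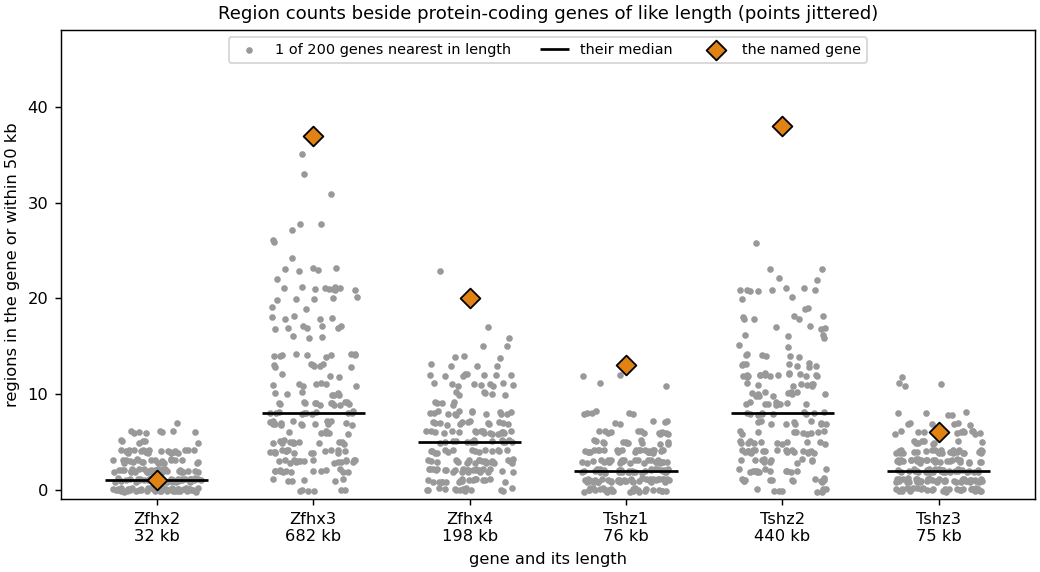
Number of regions in the gene or within 50 kb (vertical axis) for each of the 6 genes (diamonds) and for the 200 protein-coding genes nearest to each in length (grey points, with a small random shift; black bars are their medians). Tshz2 at 38, Zfhx3 at 37 and Tshz1 at 13 lie above all of their comparison genes, and Zfhx2 at 1 lies on its median.

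Zfhx3 encodes ATBF1, a regulator of neuronal and muscle differentiation that also acts in the circadian clock of the brain. The gene (Gene ID 11906) lies at chr8:108279311-108961636 in mm10, and its 37 regions comprised 21 positive and 16 negative ones. All but 1 lay inside the gene body, and their scores ran from -431 to 337. The 2 signs were not mixed evenly along the gene. The longest run of neighbours with 1 sign held 14 positive regions over 91.7 kb, from 420.3 to 512 kb above the lower end (chr8:108699579-108791303).

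In that run, which is 13.4% of the gene's length, scores ranged from 29.3 to 337 with a median of 67.2. Its lower part held the 2 strongest positive regions of the gene. One scored 281 over 454 bp (chr8:108699579-108700032), the widest region at Zfhx3. The other scored 337 over only 178 bp (chr8:108703960-108704137). A tight group of 4 followed near 497 kb, with scores of 92.0, 41.3, 46.1 and 29.4. Region density was 153 per Mb in the run, 33.3 per Mb in the gene below it and 47.0 per Mb above it. The run was cut at its own outermost regions, which raises its density by construction, so nothing is read from this contrast. Positive runs of 2 regions at Zfhx3, cut in the same way, had 181, 373 and 376 per Mb.

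Outside the run, Zfhx3 had 16 negative and 7 positive regions; since the run was chosen by its sign, the balance of the rest is not compared with the list. The part of the gene below the run held 10 negative and 4 positive regions. The strongest of these scored -202 over 169 bp at chr8:108566065-108566233, inside Lncbate1, and a positive region of 114 lay further on in the same gene. Lncbate1 is a long noncoding RNA known from brown fat, and both of its regions lie in Zfhx3 as well, so they cannot be assigned to either gene alone. The part above the run held 5 negative and 3 positive regions, among them -293 over 409 bp, 258 over 422 bp and, near the upper end of the gene, -431 over 393 bp (chr8:108956473-108956865). That last region was the strongest of the gene by absolute score.

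The RefSeq promoter table (GRCm38.p6, the assembly named mm10) lists a start site of Zfhx3 inside the run of positive regions, 435 kb above the lower end of the gene. Of the 14 regions 5 lay below this start and 9 above it. The nearest, with a score of 73.3 and 143 bp wide, ended 0.571 kb before the start, and the next above it lay 15.1 kb away. No region touched the window from 250 bases before to 50 bases after this start, nor the windows listed for Zfhx2, Tshz2 and Tshz3. Over all 32851 listed promoter windows, 1.21% touched a region, and 3.004% had one within 500 bases, as the Zfhx3 window did. At Tshz2 the nearest region lay 4.50 kb from the window, at Zfhx2 20.2 kb and at Tshz3 38.3 kb. The table was matched by symbol for these 4 genes. Zfhx4 and Tshz1 had no listed window, so whether a region touches their starts was not examined. At Zfhx4 regions lay 0.183 kb outside and 0.056 kb inside the lower end. For Zfhx3 no window at the lower end of the gene was listed either, so a start there was not examined. The nearest regions inside that end scored -113.6 and -54.1 and lay 2.88 and 3.30 kb above it.

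The 250 bases before 3 of these starts are shown because they differ in the number of positions that can carry methylation. Capitals mark the dinucleotide CG, which reads the same on both strands, and each sequence runs 5′ to 3′ on the plus strand, from RefSeq GRCm38.p6. The windows are chr8:108714394-108714643 for Zfhx3, chr2:169632259-169632508 for Tshz2 and chr7:36697868-36698117 for Tshz3.
Zfhx3: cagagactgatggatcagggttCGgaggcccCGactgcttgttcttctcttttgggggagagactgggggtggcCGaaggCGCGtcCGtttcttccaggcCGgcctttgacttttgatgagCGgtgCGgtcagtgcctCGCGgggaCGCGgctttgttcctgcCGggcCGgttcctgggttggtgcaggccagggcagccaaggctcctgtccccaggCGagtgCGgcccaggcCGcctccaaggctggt
Tshz2: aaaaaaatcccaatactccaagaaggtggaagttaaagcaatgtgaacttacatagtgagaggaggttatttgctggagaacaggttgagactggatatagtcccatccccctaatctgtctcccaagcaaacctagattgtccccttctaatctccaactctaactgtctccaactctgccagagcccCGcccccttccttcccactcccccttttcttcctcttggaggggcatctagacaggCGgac
Tshz3: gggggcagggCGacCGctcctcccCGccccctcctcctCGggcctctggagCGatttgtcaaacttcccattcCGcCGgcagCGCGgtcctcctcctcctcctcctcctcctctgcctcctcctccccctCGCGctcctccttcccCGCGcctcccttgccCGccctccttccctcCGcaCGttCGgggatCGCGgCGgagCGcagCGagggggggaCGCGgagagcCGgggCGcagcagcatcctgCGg
Zfhx3 had 18 CG dinucleotides in this stretch, Tshz2 2 and Tshz3 27, and Zfhx2 (not shown) had 15. The median over all promoters was 6, and 92.1% held at least 1. As many CG as at Tshz3 were found in 8.56% of promoters, as many as at Zfhx3 in 21.7%, and as many as at Tshz2 in 81.2%. Tshz2, with more regions than any other of the 6 genes, thus had the fewest CG before its start among the 4 genes with a listed window.

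**Figure D3:**
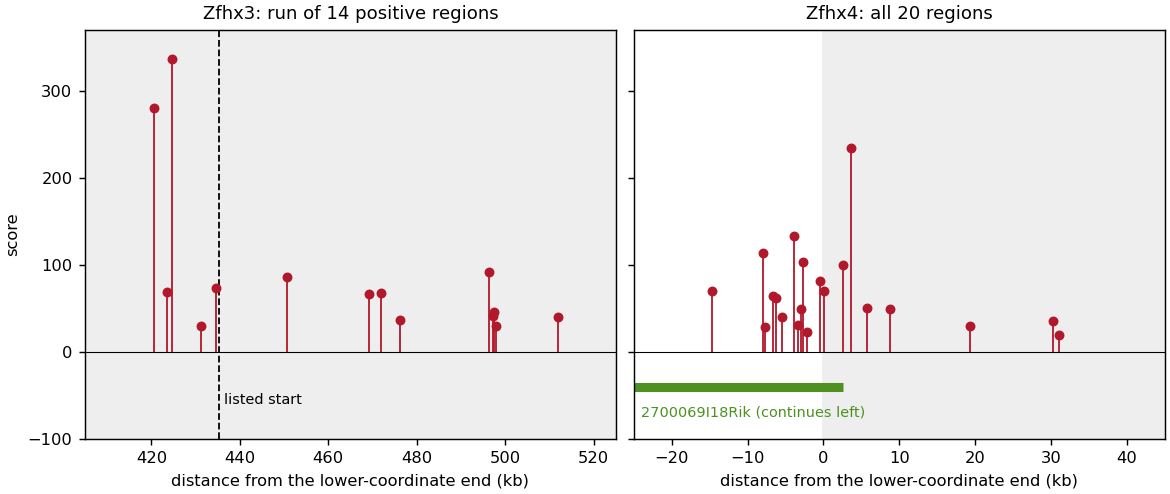
The 2 groups of positive regions in the Zfhx family, with the authors' score on the vertical axis and the distance in kb from the lower-coordinate end of the gene on the horizontal axis (grey: gene body). The left panel shows the 14 positive regions in a row at Zfhx3 with the listed start as a dashed line, and the right panel shows all 20 regions of Zfhx4 with the part of the noncoding gene 2700069I18Rik as a green bar.

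Zfhx4 encodes a close relative of ATBF1 that acts in nerve and muscle differentiation. At this gene (Gene ID 80892, chr3:5218218-5415861) all 20 regions were positive. They lay within 45.99 kb around the lower end of the gene, from 14.8 kb outside it to 31.2 kb inside, which is 15.5% of the gene and its flanks. The remaining 166 kb of the gene held 0 regions, and so did the 35.2 kb of flank below the group. The median gap between neighbours was 0.691 kb, against 13.8 kb at Zfhx3 and 7.12 kb at Tshz2.

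Scores at Zfhx4 ranged from 19.5 to 234 with a median of 56.2, and 4 of the 20 reached 100. The strongest and widest region scored 234 over 875 bp (chr3:5221468-5222342), 3.25 kb inside the gene. The others at 100 or above scored 133, 114 and 103 and lay in the flank, 3.77, 7.82 and 2.65 kb from the gene. A region of 587 bp with a score of 81.5 ended just outside the lower end, and one of 736 bp with a score of 50.8 began 5.36 kb inside. Regions further in were weak, at 30.1, 35.2 and 19.5 for the last 3.

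The noncoding gene 2700069I18Rik overlaps the lower end of Zfhx4, and 14 of the 20 regions lay in it, 12 of them outside Zfhx4. Only 6 regions lay in Zfhx4 and in no other annotated gene, so most of the group cannot be assigned to Zfhx4 alone. The strongest region, at 234, was among those 6. Of 102 protein-coding genes with at least 20 regions within 50 kb, Zfhx4 was the only one whose regions were all positive, and 1 other had negative regions only. This comparison was chosen after the values were seen, and the minimum of 20 equals the count at Zfhx4. With a minimum of 10 regions, 6 of 580 genes had positive regions only, Zfhx4 with Ferd3l, Foxc2, Foxl1, Mthfsd and Twist1, and 31 had negative regions only. Neighbouring genes in that set can share regions.

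Zfhx2, a regulator of behaviour and pain sensitivity that is active in neurons, had a single region. It lay inside the gene (Gene ID 239102, chr14:55060268-55092381) at chr14:55071694-55071842, was 149 bp wide and scored -109. None of the 6 other annotated genes in its window had a region. Zfhx2 therefore adds little to the family's balance of signs.

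Tshz2, a member of the repressor family active in trunk and brain development, had 35 negative and 3 positive regions. The gene (Gene ID 228911) lies at chr2:169632509-170072751, and 34 of the regions lay inside it. Its negative share of 92.1% (79.2 to 97.3) compares with 64.7% over the regions of its 200 comparison genes. Of the 192 comparison genes with a region, 79.7% had a lower share. The same value was 53.2% at Tshz1 and 49.7% at Tshz3, near the middle of their own comparison genes. A high negative share was also found at other genes with many regions. Of 31 protein-coding genes with at least 30 regions within 50 kb, 11 (35.5%), Tshz2 among them, were at least 90% negative. With lower minimums the share was smaller, 17 of 102 genes (16.7%) at 20 regions and 95 of 580 (16.4%) at 10. Neighbouring genes in these sets can share regions. At Tshz2 all 11 regions that reached 100 in absolute score were negative.

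The strongest regions of Tshz2 lay far apart inside the gene. The first, -449 over 1067 bp at chr2:169685864-169686930, was the widest region at any of the 6 genes and lay 53.4 kb above the listed start. The second, -453 over 448 bp at chr2:169826159-169826606, lay 194 kb above it. The third, -488 over 998 bp at chr2:169873087-169874084, had the largest absolute score of the 115 and lay at percentile 99.7 of the whole list. A further wide region of -208 over 603 bp stood 46.9 kb outside the lower end.

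Negative regions were present along the whole of Tshz2, with more in its lower part than further up. They were not gathered at the listed start itself. After those at 4.55 and 5.24 kb above it the next lay at 36.6 kb, and a closer group stood from 83.4 to 104 kb. Cut into 4 equal parts from that start, the gene held 14, 7, 6 and 7 regions, of which 14, 6, 6 and 6 were negative. Those that reached 100 in absolute score numbered 6, 2, 1 and 0 in the same order. The longest run of 1 sign was 18 negative regions over 167 kb, reaching from the lower flank to 119.8 kb into the gene (chr2:169584995-169752304). Each of the 3 positive regions had negative neighbours or was the last in the window, with scores of 61.1, 92.1 and 79.6, the last of them 5.73 kb beyond the upper end. The only other protein-coding gene in the window, Zfp217, had none of the regions; it is named although it falls outside the rule for naming genes.

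Tshz1, which is needed for the middle ear, soft palate and olfactory bulb, had 11 negative and 2 positive regions. All 8 regions inside the gene (Gene ID 110796, chr18:84011627-84087708) were negative. The strongest scored -142 over 239 bp, 4.43 kb above the lower end, and the other 7 lay between -88.6 and -23.1. The 9 neighbours from chr18:84016054-84090476 formed the longest run of 1 sign, over 74.4 kb. The last of that run, at -87.2, lay just beyond the upper end of Tshz1 and inside the adjacent gene Zadh2, which was named after its value was seen. Both positive regions, at 23.7 and 51.7, lay in the flanks.

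Tshz3, which directs smooth muscle differentiation in the ureter and the development of cortical neurons, had 5 negative and 1 positive region. Only 3 lay inside the gene (Gene ID 243931, chr7:36698118-36773553), with scores of -42.2, -59.3 and -55.6. The strongest and widest, -257 over 732 bp at chr7:36785724-36786455, stood 12.2 kb beyond the upper end, outside any annotated gene. The positive region, at 77.3, stood 45.99 kb beyond the upper end. Thus all 11 regions inside Tshz1 and Tshz3 were negative, and the 3 positive regions of these 2 genes were in their flanks. Their flanks held negative regions as well, and at Tshz2 2 of the 3 positive regions lay inside the gene. Placement by sign was not tested.

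Neighbouring regions shared a sign in 32 of 37 pairs at Tshz2, 19 of 19 at Zfhx4, 26 of 36 at Zfhx3, 8 of 12 at Tshz1 and 4 of 5 at Tshz3. Over the whole list 62.9% of neighbouring pairs shared a sign. Those pairs were taken along each chromosome at any distance, whereas pairs at a gene lie within its window. The shares are therefore matched neither for distance nor for the balance of signs. The share at Zfhx3 was 72.2%, with 14 of its 21 positive regions in 1 run and the other 7 outside it. At Zfhx4 and Tshz2 a high share follows from the dominance of 1 sign.

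The limit of 50 kb left few regions close to the line. The nearest region left out at any of the 6 genes was a positive one of 29.1 at 52.9 kb above Tshz2, and below Zfhx3 the nearest was -139.5 at 60.5 kb. The outermost regions kept were those of -208 at 46.9 kb from Tshz2 and 77.3 at 45.99 kb from Tshz3. Below Zfhx4 the nearest region left out was 1426 kb away, so its group of positive regions had a long stretch without listed regions on the lower side. Above the gene the nearest one left out, at -107.6, lay 110.4 kb beyond the upper end.

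**Figure D4:**
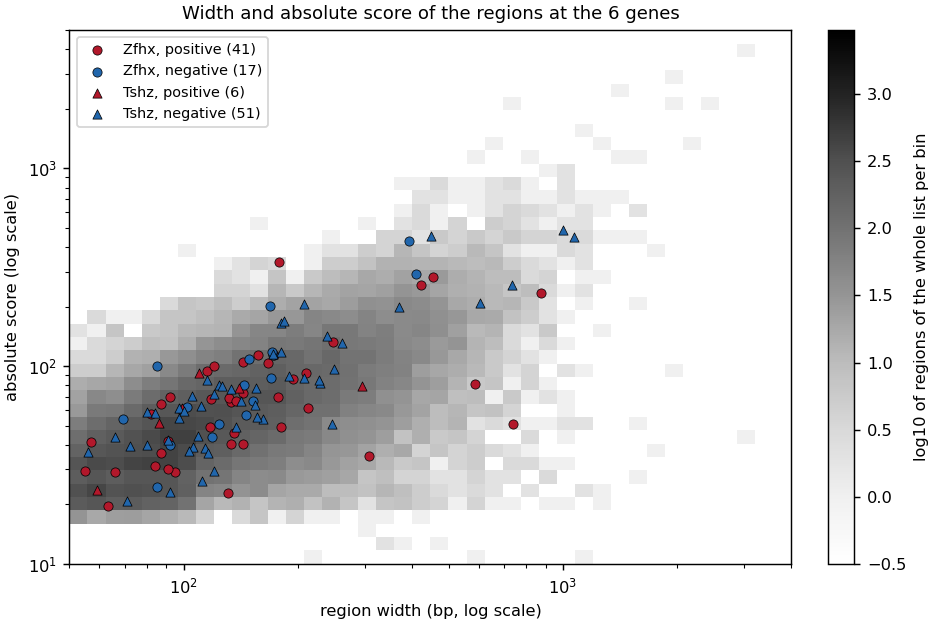
Width in bp (horizontal axis, log scale) and absolute score (vertical axis, log scale) of the 115 regions, with circles for the Zfhx and triangles for the Teashirt genes, red for positive and blue for negative scores. Grey squares give the number of regions of the whole list per bin; scores rise with width, and the region of 178 bp and score 337 at Zfhx3 lies above nearly all listed regions of like width.

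Other zinc finger homeobox genes had fewer regions than the large members. Of 8 relatives (Zeb1, Zeb2, Adnp, Adnp2, Zhx1, Zhx2, Zhx3 and Homez) 7 had a region within 50 kb, beside 68.5% of all protein-coding genes. Their median was 3 regions and their highest count 10, against a median of 16.5 for the 6 genes and 1 over all protein-coding genes. These counts are not matched for gene length. The longest relative, Zeb1, spans 184 kb, against 682 kb for Zfhx3 and 440 kb for Tshz2. The 6 genes were also chosen with results of this list known. The 27 regions of the relatives were 74.1% negative (55.3 to 86.8), near the 67.4% of the whole list. Of the 8 relatives 4 exceeded the median of genes of like length. Zhx2, a repressor of fetal liver genes, had the most, with 7 negative and 3 positive regions, the strongest at -149.9 over 189 bp. Homez had 4 regions, the strongest at -153. Of the genes tied at 3 regions, Adnp2 comes first by name, with 2 positive and 1 negative. Zeb1 and Zeb2, repressors that drive epithelial-mesenchymal transition, had 1 and 3 regions, all negative.

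The Spalt genes and the CtBP corepressors, partners or fellow patterning factors of Teashirt proteins, had mostly negative regions, as the whole list had. All 6 (Sall1, Sall2, Sall3, Sall4, Ctbp1 and Ctbp2) had a region, beside 68.5% of all protein-coding genes. Of their 27 regions 24, or 88.9% (71.9 to 96.1), were negative, beside 67.4% of the whole list. That difference was not tested. These genes had a median of 4 regions, and 5 of 6 exceeded the median of genes of like length. Ctbp2 had 8 negative and 1 positive region, the strongest at -73.1. Ctbp1 had 5 negative and 1 positive, the strongest at -239 over 703 bp. Sall3 and Sall4 were tied at 4 regions, all negative at Sall3 (strongest -129.9) and 3 of 4 negative at Sall4, whose strongest was the positive one at 129.5. No gene of either list had positive regions only. Such genes were rare in general, at 1.03% of those with at least 10 regions, so nothing is read from the contrast with Zfhx4.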

How the data were processed

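The authors compared 1 bisulfite library of CD137+ with 1 of PDGFRα+ mouse adipose progenitors, both treated with dexamethasone, and deposited a list of 34139 differentially methylated regions with a signed score for each. It was not given in the sources used here what the score measures, how it was subtracted, or which software, thresholds and depth lay behind it. The submitters' processing notes name the build mm10.

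Regions were read as BED and are printed counting from 1. Genes came from a RefSeq table of GRCm38.p6 with neither strand nor exons, so exons, introns and untranslated parts were not told apart. Strand came from the RefSeq promoter table for 4 of the 6 genes. All 6 symbols matched. Counts were made for all 21887 protein-coding genes on chromosomes, and comparison genes were the 200 nearest in length, with the 6 genes left out. Wilson intervals (95%) were computed with scipy 1.17.1, and the counting was tested on simulated regions. The text names the 6 genes, the 3 genes with the most regions in each list of related genes (ties by name), and other annotated genes that hold a region of absolute score 100 or more. Ebf1, Ebf2, Grip1, Boc, Zeb1, Zeb2, Sall4 and the genes named beside Zfhx4 for having positive regions only fall outside this rule. Genes and lists were chosen with earlier results of this list known. Alternatives changed the window, the score minimum, the overlap rule and the comparison genes.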

Additional observations from a re-analysis of the deposited data

How the results depend on the processing

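Counts over the 6 genes stayed within 1.5 times of 115 with the gene body alone (90), 5 kb (98) or 100 kb (130) on both sides, and with region midpoints (115). With only regions of absolute score 100 or more the count was 29 and the negative share 69.0%, against 59.1% of all 115; this setting holds fewer regions by construction. The negative share rested on single genes. Without Tshz2 it was 42.9% and without Zfhx4 71.6%, both chosen after seeing the data. It was 65.6% in gene bodies alone, where Zfhx4 kept 8 regions. With every window and score setting the regions of Zfhx4 stayed all positive (0% negative), and Tshz2 was 84.1% to 100% negative. The number of genes above the median of genes of like length was 5 or 6 in all 7 settings tried. Zfhx2 decided this: its place ran from percentile 36.0 to 85.0, and it had 4 regions at 100 kb. Tshz3 had 3 regions in the gene body alone and Tshz1 8, all negative. No paired analysis was possible because each group has 1 library. The depth behind the regions is unknown.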

Other observations

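Because the score rises with width, each of the 115 regions was also set beside the listed regions within 10% of its own width. Absolute scores were above the middle of these regions for 76 of 115, with a median percentile of 67.1. Zfhx4 and Tshz1 were lower, with 8 of 20 and 6 of 13 above the middle and median percentiles of 35.1 and 49.4, whereas Tshz2 had 29 of 38 (74.6) and Zfhx3 27 of 37 (71.2). At Zfhx4 most of the 20 positive regions thus scored below the middle for their width. Its region of 736 bp scored 50.8, at percentile 10.1 for its width, and its region of 131 bp scored 22.7, at percentile 0.945. At Zfhx3 the region of 178 bp with a score of 337 stood at percentile 99.9 of 2992 regions of like width, whose median absolute score was 70.2. A narrow region of 85 bp near the upper end of Zfhx3 scored -100.4, at percentile 98.7, against a median of 38.2. These places describe the list, and no test was made.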
